A study of Homo sapiens with 4 samples.

Results

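The genes described here are the S100 and annexin genes, 30 of the 20136 protein-coding genes of GENCODE version 44 on hg19 (GRCh37). They were taken by symbol and comprise 18 S100 genes, 15 of which lie in a cluster at 1q21 on chromosome 1, and 12 annexin genes. A gene was called marked in a cell line when an H3K27ac peak overlapped a window of 1 kb either side of any of its transcript starts. Peaks that overlapped no such window of a protein-coding gene were called distal and were counted up to 50 kb from the starts of each member. Where 4 values stand in a row they are those of COLO-205, then DU-145, then OVCAR-3, then SKOV-3.

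The libraries were made to look for active chromatin at predicted activating non-coding mutations in cancer cell lines. H3K27ac, an acetylation of histone H3 found at promoters and enhancers in use, was profiled by ChIP-seq with the antibody ab4729 in 4 established lines, with 1 library per line. COLO-205 comes from colon and was grown in RPMI, DU-145 comes from prostate and was grown in Eagle minimal essential medium, and the ovarian lines were grown in RPMI 1640 medium (OVCAR-3) and McCoy's 5a minimal essential medium (SKOV-3). All media held FBS and the labels name no treatment. With 1 library per line there is no replicate error, no difference between lines could be tested, and a property of a line and a property of its library cannot be told apart.

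The peak lists differ in length, which bears on every count below. They hold 85576, 75468, 76093 and 14001 peaks, from about 29800000, 36000000, 34200000 and 22400000 ChIP tags as computed from the peak values. The peaks cover 1.07%, 1.38%, 1.26% and 0.189% of the genome. Shortened lists were therefore made of the 14001 peaks with the highest −log10 q in each line. They were used for the marked members, the distal peaks and the cover of the whole 1q21 cluster. Other counts are from the full lists.

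The marker genes of the source tissues were read first. Of 7 genes of the colon epithelium, 4 were marked in COLO-205 (CDX2, VIL1, HNF4A and GPA33) and 0 in each of the other lines. All 7 genes of ovarian carcinoma and Mullerian epithelium were marked in OVCAR-3, but 2 in SKOV-3 (PAX8 and SOX17), as against 4 in COLO-205 and 4 in DU-145. Of all protein-coding genes, 51.2%, 59.9%, 60.5% and 31.6% were marked in the 4 lines. Except in OVCAR-3, the counts of these ovarian genes lie near those shares, as does the colon count in COLO-205. TMPRSS2, a gene of prostate luminal cells, stood at place 4.68 among the DU-145 peaks by fold enrichment, at 97.7 in COLO-205 and 61.6 in OVCAR-3, and was not marked in SKOV-3, so it does not set DU-145 apart. KLK2 and KLK3, of the same cells, were marked in COLO-205 alone. All 5 general epithelial genes were marked in the first 3 lines and 3 in SKOV-3, where EPCAM and CDH1 had no promoter peak. Among genes of blood and endothelial cells, ITGAM was marked in COLO-205 and CD14 and CDH5 in DU-145, while PTPRC, CD3E and LYZ were marked in 0 lines.

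S100 proteins are small calcium-binding proteins that mostly work as dimers, inside cells as partners of enzymes, cytoskeletal proteins and annexins, and outside cells as signals of damage and inflammation. Annexins bind acidic membrane phospholipids when calcium rises, and act in membrane repair, vesicle traffic and the control of inflammation. Several S100 proteins bind a particular annexin, as S100A10 binds annexin A2, and members of both families are known for changed levels in epithelial cancers.

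All but 6 of the members had an acetylated promoter in at least 1 line. In COLO-205, 18 of the 30 were marked, where 51.2% of all protein-coding genes were. In DU-145 it was 23 (59.9% of all genes), in OVCAR-3 21 (60.5% of all genes) and in SKOV-3 17 (31.6% of all genes). As percentages of the members, these counts are 60, 76.7, 70 and 56.7. The share of the members was thus above that of all genes in each list. It lay nearest to that of all genes in COLO-205 and OVCAR-3, and the gap was widest in SKOV-3, the shortest list.

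When every list was shortened to the same number of peaks, the order of the lines changed. COLO-205 then marked 9 members (21.9% of all genes), DU-145 15 (37.8% of all genes), OVCAR-3 16 (38.0% of all genes) and SKOV-3 17 (31.6% of all genes). SKOV-3 was then no longer the lowest, and COLO-205 had the lowest count and the lowest share of all genes. OVCAR-3 and SKOV-3 differ by 1 gene here, and with 1 start per gene as well, a choice made after seeing the data, both had 15. The members had a median of 5 annotated transcript starts, the same as all protein-coding genes. The families differed, as the annexins had from 2 (ANXA9) to 23 (ANXA2) and the S100 genes from 1 (S100A9) to 6 (S100A2). Most annexins thus had more starts than most S100 genes.

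By line, 13 members were marked in all 4 lines, against 25.2% of all genes. These were S100A2, S100A3, S100A4, S100A5, S100A6, S100A10, S100A11 and S100A16, and ANXA2, ANXA3, ANXA4, ANXA7 and ANXA11. Another 6 were marked in 0 lines (24.9% of all genes), namely S100B, S100Z, ANXA1, ANXA8, ANXA10 and ANXA13. The remaining 11 varied between lines. S100A7, S100A14 and ANXA9 were marked in every line but SKOV-3, which is 3 members against 13% of all genes. None of them kept this pattern with the shortened lists, where S100A7 and ANXA9 were marked in 0 lines and S100A14 in 1. S100A1, S100A13 and ANXA5 were marked in every line but COLO-205, which is 3 members against 3.82% of all genes. With 1 start per gene S100A13 was marked in 1 line and not 3, so its pattern depends on the starts that are counted. S100A9 and S100A12 were marked in DU-145 and OVCAR-3 alone, which is 2 members against 9.98% of all genes. ANXA6 lacked a mark in OVCAR-3 alone, S100A8 was marked in DU-145 alone and S100P in COLO-205 alone. With SKOV-3 left out, a choice made after seeing the data, 16 members were marked in all of the other 3 lines (38.2% of all genes). With the shortened lists 8 members were marked in all 4 lines (12.5% of all genes) and 12 in 0 lines (46.2%).

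**Figure D1:**
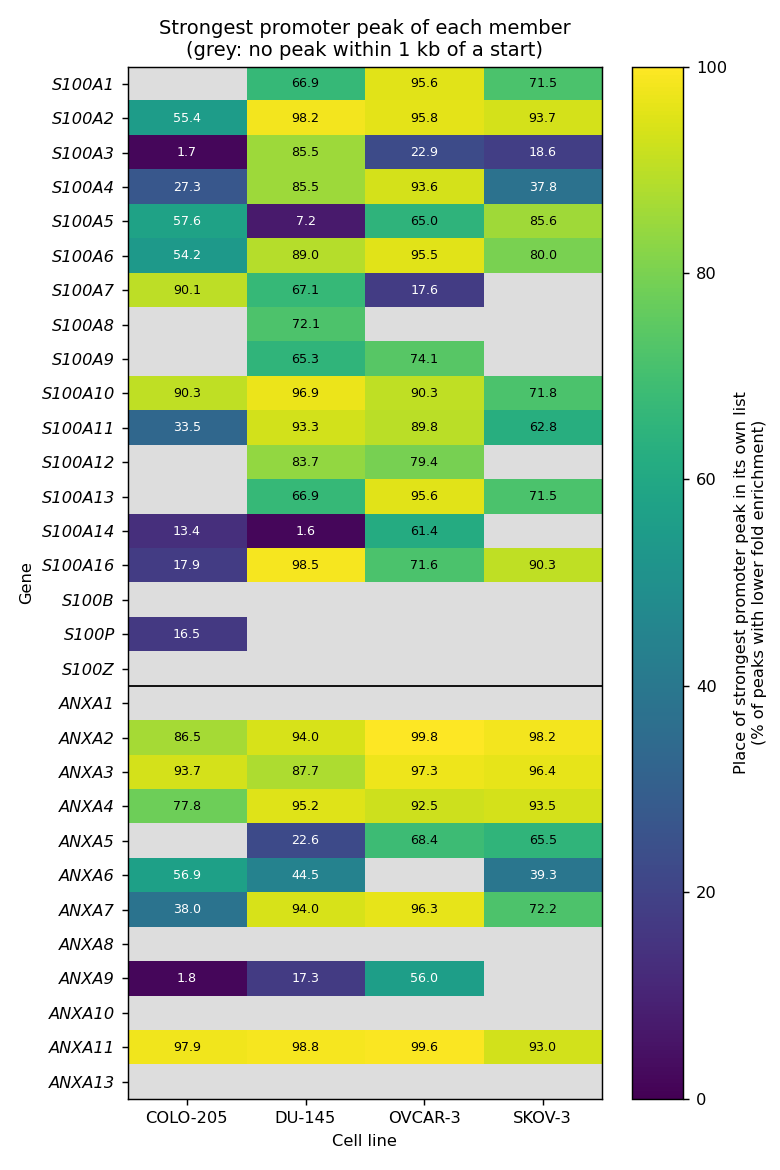
Place of the strongest promoter peak of each member (rows) in the peak list of each line (columns), as the percentage of peaks of that list with a lower fold enrichment. Grey cells have no promoter peak; ANXA2, ANXA3, ANXA4 and ANXA11 lie at 77.8 or above in all 4 lines, and 6 genes are grey throughout.

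The promoters at which the lines differed, and those of the annexins with the strongest marks, are shown next. RefSeq promoter windows, from 250 bases before to 50 after a start, were matched by symbol for 27 of the 30 members, with 38 windows in all, in a table of the build GRCh38.p14. S100B, ANXA8 and ANXA13 were not matched. Each window was found once in GRCh37 as an exact match, and positions are given on that build. Shown are the bases before the most upstream start, reduced to the longest run without an annotated exon, for 8 of the 11 members that were marked in exactly 1 or 3 lines or were among the strongest in all 4. Capitals mark TATAAA, the AP-1 motif TGAGTCA and the GC box GGGCGG, each searched on both strands. The S100A8 run is chr1:153363665-153363914 on the minus strand, upstream of the gene, with 119 of its bases under a DU-145 peak. The S100P run, chr4:6695355-6695604 on the plus strand, and the S100A7 run, chr1:153433128-153433377 on the minus strand, are intergenic and lie under peaks in 0 lines, as the marks of these genes lie inside the genes. The S100A14 run, chr1:153588832-153589051 on the minus strand, lies in an intron of a longer S100A14 transcript with 160 bases under an OVCAR-3 peak. The S100A1 run, chr1:153600725-153600859 on the plus strand, lies in introns of S100A1 and S100A13, and all 135 bases are under a peak in DU-145 and in OVCAR-3. The ANXA5 run, chr4:122618151-122618385 on the minus strand, lies upstream of the gene, with all 235 bases under a peak in DU-145 and 57 in OVCAR-3. The ANXA2 run, chr15:60690357-60690435 on the minus strand, is intronic in a longer transcript, with all 79 bases under peaks in COLO-205, DU-145 and OVCAR-3. The ANXA11 run, chr10:81965565-81965814 on the minus strand, is upstream of the gene and has 71, 198, 185 and 20 bases under peaks.
S100A8: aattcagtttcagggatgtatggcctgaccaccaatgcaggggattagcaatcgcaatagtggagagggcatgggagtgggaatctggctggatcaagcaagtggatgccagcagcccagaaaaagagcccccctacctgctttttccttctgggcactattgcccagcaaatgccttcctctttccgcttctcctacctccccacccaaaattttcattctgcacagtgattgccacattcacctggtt
S100P: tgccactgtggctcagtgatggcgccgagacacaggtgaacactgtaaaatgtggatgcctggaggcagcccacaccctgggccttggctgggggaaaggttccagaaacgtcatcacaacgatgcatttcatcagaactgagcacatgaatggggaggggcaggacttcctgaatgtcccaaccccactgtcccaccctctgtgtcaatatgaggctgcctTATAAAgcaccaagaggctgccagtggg
S100A7: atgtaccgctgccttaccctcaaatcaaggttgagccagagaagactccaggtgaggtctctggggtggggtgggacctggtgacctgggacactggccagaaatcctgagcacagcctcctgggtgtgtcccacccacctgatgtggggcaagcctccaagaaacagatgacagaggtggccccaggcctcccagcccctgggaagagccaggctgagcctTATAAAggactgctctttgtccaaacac
S100A14: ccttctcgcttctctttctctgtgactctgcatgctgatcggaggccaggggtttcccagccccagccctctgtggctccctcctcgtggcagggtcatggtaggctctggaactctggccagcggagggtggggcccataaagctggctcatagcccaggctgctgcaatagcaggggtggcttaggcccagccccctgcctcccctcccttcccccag
S100A1: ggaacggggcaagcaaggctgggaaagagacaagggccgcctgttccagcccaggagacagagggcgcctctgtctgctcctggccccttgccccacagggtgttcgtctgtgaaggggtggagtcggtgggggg
ANXA5: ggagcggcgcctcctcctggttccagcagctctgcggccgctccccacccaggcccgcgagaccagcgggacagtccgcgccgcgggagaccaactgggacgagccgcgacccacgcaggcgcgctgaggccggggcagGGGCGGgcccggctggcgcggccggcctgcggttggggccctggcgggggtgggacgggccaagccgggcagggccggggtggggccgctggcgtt
ANXA2: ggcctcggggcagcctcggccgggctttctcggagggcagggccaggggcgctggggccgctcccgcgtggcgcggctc
ANXA11: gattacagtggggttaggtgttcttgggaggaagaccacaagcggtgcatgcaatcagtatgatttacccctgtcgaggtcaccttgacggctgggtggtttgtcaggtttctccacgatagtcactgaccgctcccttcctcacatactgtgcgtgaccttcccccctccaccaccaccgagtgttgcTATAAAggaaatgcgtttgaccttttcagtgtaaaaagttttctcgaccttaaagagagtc

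TATAAA stood 28 bases before the start in S100P and S100A7 and 61 bases before it in ANXA11, and the GC box stood 111 bases before the start in ANXA5. Over the whole 250 bases before the start, TATAAA was found in 13 of the 38 member windows (34.2%), against 9.0% of the 22199 windows of 15843 protein-coding genes. The GC box was found in 14 (36.8%, against 53.7%) and the AP-1 motif in 4 (10.5%, against 3.45%). The windows of members marked in all 4 lines had a median ratio of observed to expected CpG of 0.576, those of members marked in 1 to 3 lines 0.208, and all protein-coding windows 0.711. TATAAA was found in 3 of 19 windows in the first group and in 7 of 16 in the next, and in each of the 3 windows of members marked in 0 lines (S100Z, ANXA1 and ANXA10). All 4 AP-1 matches were in members marked in every line (S100A2, S100A3, S100A5 and ANXA2). Some windows of a gene overlap each other, and a match of letters does not show that a factor binds.

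The 15 S100 genes of chromosome 1 lie in chr1:151955391-153604515, a stretch of 1649125 bp that begins with S100A10 and ends with S100A1. It holds 63 protein-coding genes, of which 48 are not S100 members of the list and mostly encode proteins of the cornified layer of the skin. The stretch held 55, 133, 77 and 34 peaks. These covered 1.06%, 5.0%, 3.1% and 0.961% of its bases, which is 1.2, 3.95, 1.69 and 4.61 times the share of chromosome 1 covered in the same line. The cover was thus close to that of the chromosome in COLO-205 and furthest above it in SKOV-3 and DU-145. With the shortened lists the covered shares were 0.271%, 2.03%, 1.77% and 0.961%, so DU-145 remained the highest and COLO-205 became the lowest. The share of chromosome 1 under the shortened lists was not computed, so this order is not set against the chromosome.

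**Figure D2:**
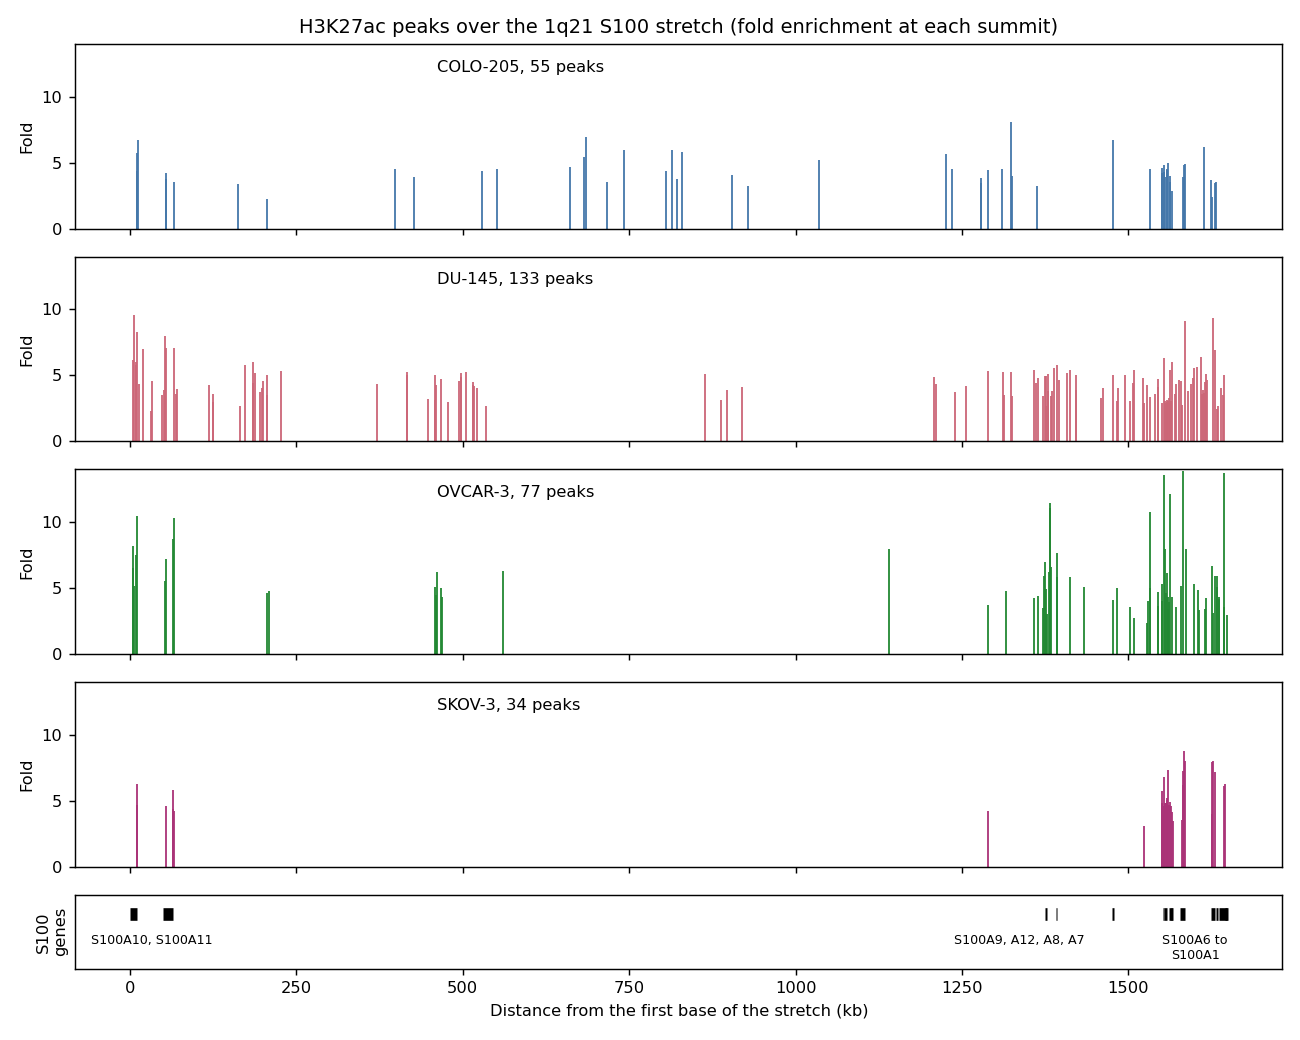
H3K27ac peaks over the 1q21 S100 stretch in 4 lines, each line a panel; the horizontal axis is the distance from the first base of the stretch in kb, the height of each line is the fold enrichment at a summit, and black bars are the S100 genes. Of the 34 SKOV-3 peaks 24 lie from S100A6 to S100A1 on the right, whereas 28 of the 55 COLO-205 peaks lie between S100A11 and S100A9, and the longest gap is 1223403 bp in SKOV-3.

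Within the stretch the peaks covered most, in each line, of the part with the S100 genes from S100A6 to S100A1. This part, chr1:153507075-153604515, holds 9 S100 genes in 97441 bp, and peaks covered 6.4%, 37%, 31.1% and 12.9% of it. In SKOV-3 this is 61.7 times the share of chromosome 1, and 24 of the 34 peaks of the stretch overlap it. The part from S100A9 to S100A7, chr1:153330330-153433127, which holds the genes of inflammation, was covered to 0.238%, 6.5%, 3.88% and 0%. The leading part with S100A10 and S100A11, chr1:151955391-152020383, was covered to 3.52%, 17.0%, 9.28% and 2.96%.

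Between S100A11 and S100A9 lie 1309946 bp with 47 other genes. Peaks covered 0.578%, 1.66%, 0.464% and 0.0356% of these bases. In COLO-205 and SKOV-3 this is more than in the part from S100A9 to S100A7, and 28 of the 55 COLO-205 peaks of the stretch lie here. All 7 fused-type S100 genes, such as FLG (filaggrin) and HRNR (hornerin), which join an S100 domain to long repeats, were marked in 0 lines. The 11 small proline-rich genes and the genes of involucrin and loricrin were also marked in 0 lines. Of the 19 late cornified envelope genes, 5 were marked in COLO-205 (LCE1B, LCE1E, LCE2A, LCE2D and LCE5A). This is a smaller share than the 51.2% of all genes marked in that line. In the other lines 0 were marked, against 59.9%, 60.5% and 31.6% of all genes. Among the others, PRR9 was marked in COLO-205 and PGLYRP4, a peptidoglycan recognition gene, in DU-145 and OVCAR-3.

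The overlap of the lines from S100A6 to S100A1 varied with the lines compared. Of the bases under SKOV-3 peaks there, 95.2% were also under DU-145 peaks and 97.3% under OVCAR-3 peaks, but 35.7% under COLO-205 peaks. Of the bases of COLO-205, 90.2% were under DU-145 peaks, 87.5% under OVCAR-3 peaks and 71.8% under SKOV-3 peaks. The reverse shares were lower, as SKOV-3 covered 33.1% of the DU-145 bases and 40.2% of the OVCAR-3 bases, and COLO-205 15.6% and 18.0% of them. In all, 4343 of the 43577 bases marked in any line were marked in all 4. DU-145 and OVCAR-3 had 23336 bases in common, which is 64.8% of the DU-145 bases and 77.0% of the OVCAR-3 bases.

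**Figure D3:**
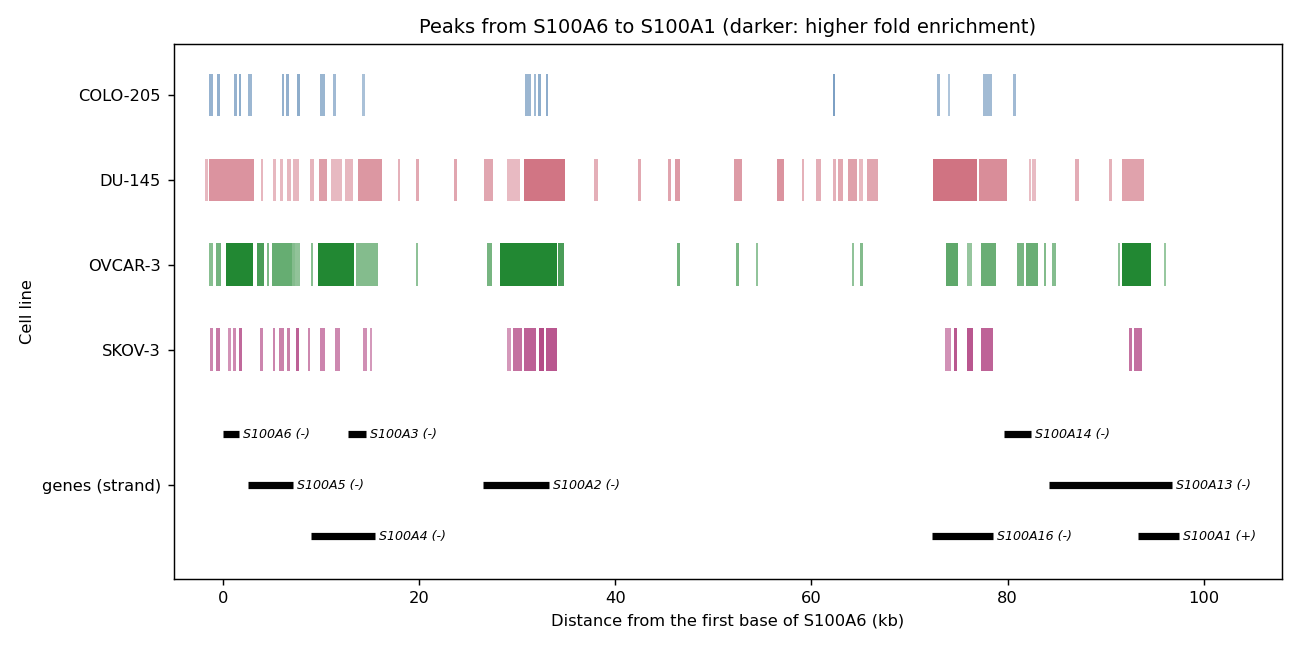
Peaks of the 4 lines from S100A6 to S100A1 as coloured bars, darker for a higher fold enrichment, with the genes as black bars and their strand in brackets; the horizontal axis is the distance from the first base of S100A6 in kb. The widest peak of each line measures 918 bp (COLO-205), 4550 bp (DU-145), 5834 bp (OVCAR-3) or 1248 bp (SKOV-3).

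For the strength of single promoters, each member's strongest promoter peak was placed in its own list by the fold enrichment over the local background that the authors' peak caller gave. The place is the percentage of peaks of that list with a lower fold, and it is used because fold and −log10 q are not scaled between libraries. A place depends on the length of the list as well, so it is not read as a difference in strength between lines. The median place of the marked S100 genes was 33.5, 83.7, 84.6 and 71.7. For all marked protein-coding genes it was 43.8, 59.1, 78.0 and 48.3. The marked annexins stood higher than both, at 77.8, 90.8, 96.3 and 93.0. The strongest peak was taken over all starts, of which most annexins have more than most S100 genes. The part of this in their places was not tested. The value of COLO-205 depends on the measure, since the median place of all its marked members was 54.8 by fold and 83.1 by −log10 q.

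S100A10, which links to annexin A2 and holds plasminogen activators at the cell surface, had the strongest S100 promoter peak of COLO-205 (fold 6.76, −log10 q 28.3, place 90.3). Its places in the other lines were 96.9 for DU-145, 90.3 for OVCAR-3 and 71.8 for SKOV-3. S100A11, a partner of annexin A1, had a peak of 2727 bp in DU-145 at place 93.3, with places of 33.5 in COLO-205, 89.8 in OVCAR-3 and 62.8 in SKOV-3. S100A6, or calcyclin, which binds annexin A11 among others, had places of 54.2, 89.0, 95.5 and 80.0. The promoters of these annexin partners were thus marked in each line.

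S100A2, an S100 protein of squamous and basal epithelium, carried the widest promoter peak of the stretch, 5834 bp in OVCAR-3 at chr1:153535342-153541175. Its summit there held 296 tags (exact Poisson 95% interval 263 to 332, counting error only), with a fold of 13.9 and a −log10 q of 222. The places of S100A2 were 55.4, 98.2, 95.8 and 93.7, and in SKOV-3 it was the strongest S100 promoter. S100A4, which acts on non-muscle myosin in cell movement, had places of 27.3, 85.5, 93.6 and 37.8. S100A3, a protein of the hair cuticle, starts inside the longest form of S100A4, and a peak there fell to both genes in DU-145, OVCAR-3 and SKOV-3. In DU-145 it was the strongest promoter peak of both. S100A3 had places of 1.74, 85.5, 22.9 and 18.6.

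S100A5, best known from olfactory neurons, had a place of 7.2 in DU-145 and of 57.6, 65.0 and 85.6 in the others. S100A16 had the S100 promoter peak with the highest fold in DU-145 (9.37, place 98.5), but the summit of this peak of 4490 bp lies at −1532 bp from the nearest start, outside the window. S100A2, with its DU-145 summit at −462 bp, had a fold of 9.11. S100A16 had places of 17.9 in COLO-205, 71.6 in OVCAR-3 and 90.3 in SKOV-3. S100A14, its neighbour and a protein of epithelia, stood low in the lists of 2 lines, at place 13.4 in COLO-205 and 1.62 in DU-145, against 61.4 in OVCAR-3. Its COLO-205 peak lies 538 bp from the nearest start. The nearest SKOV-3 peak is 2845 bp away.

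S100A1, a regulator of calcium release in heart muscle, and S100A13, which helps to export growth factors without a signal peptide, start close together on opposite strands. Where they were marked, the strongest promoter peak was the same for both genes, at places 66.9 (DU-145), 95.6 (OVCAR-3) and 71.5 (SKOV-3). In OVCAR-3 it had a fold of 13.7 with 216 tags at the summit (188 to 247), close to the highest fold of the stretch in that line. In COLO-205 the nearest peak was 5602 bp from S100A1 and 2706 bp from S100A13. The absence in COLO-205 is thus shared by adjacent genes, but it holds for the GENCODE starts only, and with 1 start per gene S100A13 lacked a mark in 3 lines. A RefSeq promoter of S100A13 at chr1:153606838-153607087 has 106 of its 250 bases under a COLO-205 peak, but the annotation has transcripts of other genes and none of S100A13 there.

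S100A8 and S100A9 encode calprotectin, a metal-binding complex abundant in neutrophils and monocytes, and S100A12 is a further neutrophil protein and a ligand of the receptor AGER. In DU-145 all 3 were marked, with folds of 5.20, 4.96 and 5.82 for S100A8, S100A9 and S100A12 and 27, 31 and 29 tags at the summits (intervals 17.8 to 39.3, 21.1 to 44 and 19.4 to 41.6). In OVCAR-3, S100A9 had a fold of 6.96 and S100A12 of 7.68, while the nearest peak to S100A8 was 3543 bp away. The nearest peaks to S100A8 were 45334 bp away in COLO-205 and 116052 bp in SKOV-3. These marks were not among the 14001 peaks with the highest −log10 q of their lines. CD14, a monocyte gene, and CDH5, an endothelial gene, were marked in DU-145 at places 21.5 and 2.35, and their part in the result was not tested.

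S100A7, or psoriasin, an antimicrobial protein of inflamed skin, had a narrow peak inside the gene in 3 lines. Its place was 90.1 in COLO-205, 67.1 in DU-145 and 17.6 in OVCAR-3, with 27, 25 and 18 tags at the summits. In SKOV-3 the nearest peak was 46474 bp away. Its marks were not in the shortened lists either.

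Outside 1q21, S100P, a protein of placenta and of several gastrointestinal cancers, was marked in COLO-205 alone, by a peak of 292 bp that begins 532 bp inside the gene at place 16.5. That mark is lost with a window of 500 bp. The stronger COLO-205 signal near S100P was distal, with 10 distal peaks within 50 kb, the highest count of a member in that line. Among them, chr4:6690847-6691728 had a fold of 6.79 and a −log10 q of 33.8, with its summit at −4265 bp from the start. OVCAR-3, without a promoter mark, had its strongest distal peak at nearly the same site, chr4:6690064-6692428, with a fold of 11.7 and a summit at −4368 bp. S100B, the glial S100 protein, had no peak closer to a start than 29793 bp in any line. S100Z had its nearest peak 2488 bp away in DU-145 and at least 10079 bp away in the other lines. A distal OVCAR-3 peak near S100Z, chr5:76127325-76127761, had a fold of 17.3 and place 98.3, with its summit at −18339 bp.

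Among the annexins, ANXA2 and ANXA11 had the highest promoter marks by the median place over the lines. Annexin A2 joins S100A10 at the plasma membrane in a complex that binds plasminogen and shapes membrane-actin contacts. In OVCAR-3 its promoter peak, chr15:60688781-60691631, had a fold of 26.7, a −log10 q of 335 and 324 tags at the summit (290 to 361), at place 99.8. Its places were 86.5 in COLO-205, 94.0 in DU-145 and 98.2 in SKOV-3. In DU-145 the promoter peak with the highest fold (7.25) lies at an internal start, chr15:60665541-60666294, but the peak at the upstream start is close, with a fold of 6.88. By −log10 q the internal peak is not the highest, with 24.8 against 55.3, so the site of the strongest mark depends on the measure.

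Annexin A11, which tethers RNA granules to moving lysosomes, was high in each line, with folds of 9.90, 9.77, 23.8 and 8.54 and places of 97.9, 98.8, 99.6 and 93.0. The summits of its strongest promoter peaks lie between 93 and 171 bp inside the same start in all 4 lines. Annexin A3 had places of 93.7, 87.7, 97.3 and 96.4. Its peaks with the highest fold in COLO-205 and DU-145 lie at other starts than in the ovarian lines, but another promoter peak had the higher −log10 q in both (23.2 against 13.8, and 23.6 against 14.3). Annexin A4, a protein of secretory epithelia, had places of 77.8, 95.2, 92.5 and 93.5, with the 4 summits between −506 and −469 bp from the same start. The RefSeq window of ANXA4 beside these summits, chr2:69870690-69870939, has 233 of its 250 bases in exons of another gene. The part of that gene in these marks was not tested. Annexin A7, or synexin, named for the joining of secretory granules, had places of 38.0, 94.0, 96.3 and 72.2.

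**Figure D4:**
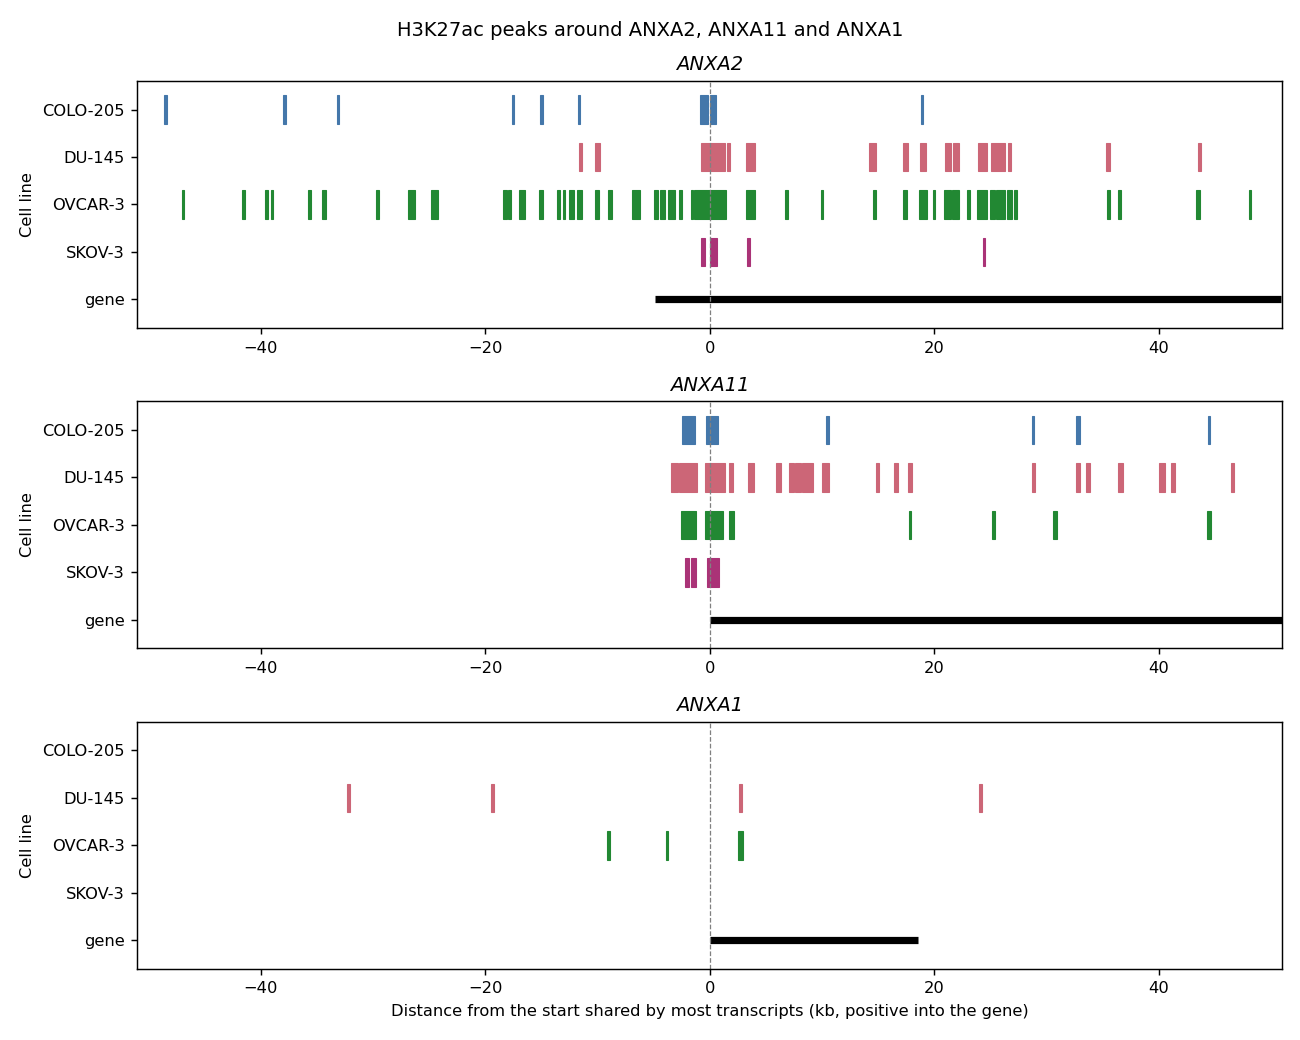
Peaks of the 4 lines within 50 kb of the start shared by most transcripts of ANXA2, ANXA11 and ANXA1, with distance in kb on the horizontal axis (positive into the gene) and the gene as a black bar. ANXA2 has 45 peaks in OVCAR-3 and 4 in SKOV-3, ANXA11 has peaks at its start in all 4 lines, and ANXA1 has none at its start.

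Annexin A5, which binds phosphatidylserine and is used to stain dying cells, was marked in DU-145 (place 22.6), OVCAR-3 (68.4) and SKOV-3 (65.5). By −log10 q its places were 80.1, 84.3 and 77.8 in these lines, so the low place in DU-145 holds by fold alone. In COLO-205 the nearest peak was 126281 bp from a start. Annexin A6, with its doubled annexin core, was marked at its upstream start in DU-145 alone, at place 44.5, and at internal starts in COLO-205 (56.9) and SKOV-3 (39.3). With 1 start per gene it was marked in 1 line. The SKOV-3 peak, 204 bp with 14 tags at the summit (7.65 to 23.5), lies 692 bp from a start and is lost with a window of 500 bp. Annexin A9, an annexin of stratified epithelium, was marked in COLO-205 (place 1.81), DU-145 (17.3) and OVCAR-3 (56.0).

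Annexin A1, an inhibitor of inflammation that signals through formyl peptide receptors, had no promoter mark in any line. Its nearest peaks were outside the window in DU-145 and OVCAR-3, 2568 and 2507 bp from a start, and far away in COLO-205 (90440 bp) and SKOV-3 (786701 bp). The OVCAR-3 peak, chr9:75769325-75769699 in the gene, had a fold of 13.2, a −log10 q of 44 and place 95. A window of 2 kb did not reach these peaks. ANXA8, ANXA10 (a gastric annexin) and ANXA13 (an intestinal one) had no peak closer to a start than 19364 bp in any line. Reads of ANXA8 may be shared with its near-identical copies, so its lack of peaks is uncertain.

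Distal peaks were more numerous around the members than around all genes in each line but COLO-205. The median number per member was 2, 12.5, 6.5 and 1, against 2, 1, 1 and 0 for all protein-coding genes. The means were 2.2, 14.1, 9.67 and 1.57, against 4.65, 4.69, 4.39 and 0.506. In COLO-205 the members thus had fewer distal peaks on average than all genes. The medians of the S100 genes were 2, 19, 12 and 2, and those of the annexins 1, 6.5, 2 and 0, in SKOV-3 the same as all genes. The annexin means were 1.67, 9.75, 6.25 and 0.833. Clustered S100 genes share such peaks, so their counts are not independent. Counted once, the S100 genes had 23, 88, 63 and 10 distal peaks and the annexins 20, 117, 75 and 10. With the shortened lists the members of both families together kept 4, 16, 24 and 20. These counts were not made around all genes, so the comparison with all genes rests on the full lists alone.

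**Figure D5:**
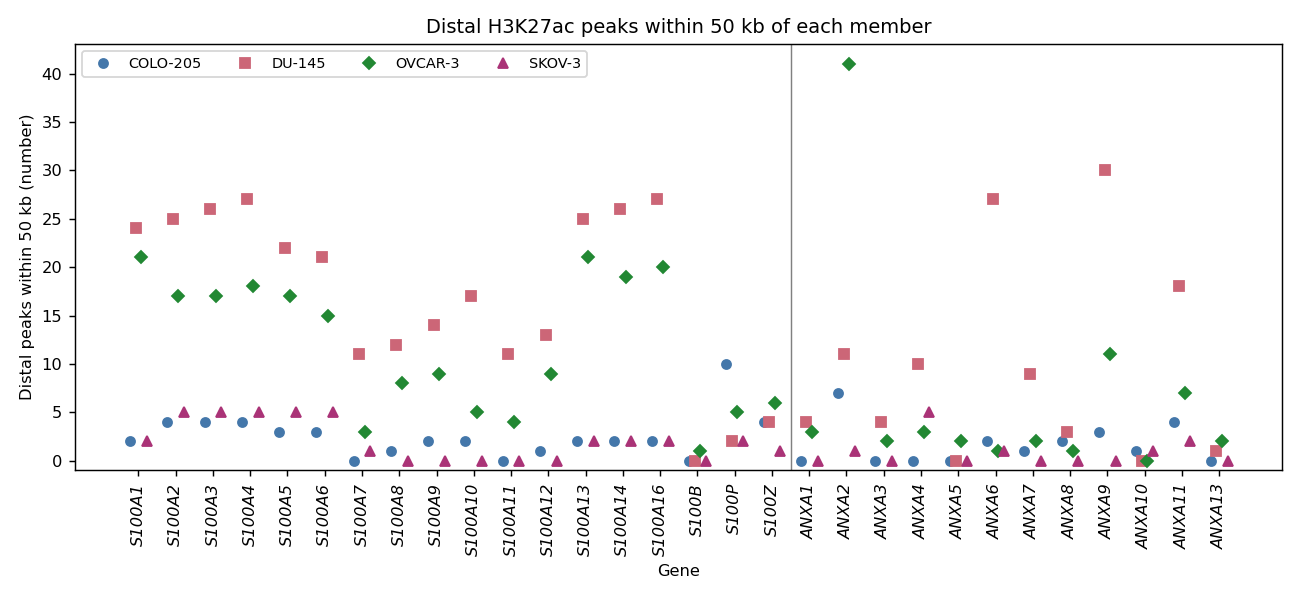
Number of distal H3K27ac peaks within 50 kb of each member (horizontal axis) in the 4 lines, 1 symbol per line; the grey line separates S100 genes from annexins. ANXA2 in OVCAR-3 has the highest number, 41, and DU-145 lies above 20 at the 9 genes from S100A6 to S100A1.

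The highest count was 41, at ANXA2 in OVCAR-3, and the counts of ANXA2 over the lines were 7, 11, 41 and 1. Peaks covered 2.93%, 9.39%, 20.1% and 1.52% of the bases within 50 kb of the ANXA2 start. The strongest distal peak in OVCAR-3, chr15:60663905-60664689 inside ANXA2, had a fold of 20.9 and place 99.3. In DU-145 the highest counts were 30 at ANXA9, 27 at ANXA6, and 27 at S100A4 and S100A16, and the 9 genes from S100A6 to S100A1 each had between 21 and 27. OVCAR-3 had between 15 and 21 at the same 9 genes. The strongest distal peak of the S100 stretch in DU-145, chr1:151961158-151962776, lies inside S100A10, 3231 bp from its nearest start, with a fold of 9.57 and place 98.6.

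Several distal sites recurred between lines. A peak just beyond S100A6, at chr1:153506416-153506835 in SKOV-3 and chr1:153506466-153506796 in COLO-205, was the strongest distal peak of S100A6 in both lines, with folds of 5.75 and 4.57. In DU-145 the same site lies under the wide promoter peak of S100A6. OVCAR-3 had a peak there too, chr1:153506370-153506944, with a fold of 5.28. At ANXA11 the strongest distal peaks of DU-145, OVCAR-3 and SKOV-3 had summits at −1969, −1949 and −2008 bp from the start, with folds of 6.90, 14.6 and 7.97. COLO-205 also had a peak at this site, from −2.528 to −1.285 kb, with a fold of 5.16. In OVCAR-3 the strongest distal peak of S100A9, chr1:153338064-153338582, lies 8086 bp after the start with a fold of 11.5, above the promoter peaks of S100A9 and S100A12 in that line.

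Of the 30 members, 16 were marked in both ovarian lines (30.2% of all genes) and 8 in neither (38.0% of all genes). OVCAR-3 alone marked 5 (30.4% of all genes), namely S100A7, S100A9, S100A12, S100A14 and ANXA9, and SKOV-3 alone marked ANXA6 (1.45% of all genes). With the shortened lists, S100A7, S100A9, S100A12 and ANXA9 were marked in 0 lines and S100A14 in 1. Shortening can only remove marks and left the SKOV-3 list as it was. The part of list length in this difference was not tested. All 16 shared members were also marked in DU-145, so sharing between the ovarian lines does not set them apart from DU-145.

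Partners and receptors of these proteins were read from a list of 23 genes. The counts marked were 13, 16, 14 and 10, which is 56.5%, 69.6%, 60.9% and 43.5% of the list. Of all genes 51.2%, 59.9%, 60.5% and 31.6% were marked, so the OVCAR-3 count lies at the background. The counts of the other lines lie only a few genes above it. In all 4 lines 9 were marked (39.1%, against 25.2% of all genes), and in 0 lines 6 (26.1%, against 24.9%). Marked throughout were BSG, a receptor of S100A9, AHNAK, a large scaffold bound by annexin A2 with S100A10, the calpain genes CAPN1 and CAPN2, CACYBP, which binds S100A6, S100PBP, which binds S100P, PDCD6 and PDCD6IP, which act in membrane repair, and PLAU, the urokinase gene. PLAU stood at place 99.9 in DU-145, with a fold of 16.2, and at 45.0, 67.2 and 95.9 in the others. The urokinase receptor gene PLAUR was marked in DU-145 and OVCAR-3 alone. PLAT, the gene of tissue plasminogen activator, was marked in every line but COLO-205. The formyl peptide receptor genes FPR1, FPR2 and FPR3, through which annexin A1 signals, were marked in 0 lines, as were CD36, KDR and PLG. AGER, the receptor of several secreted S100 proteins, was marked in COLO-205 and DU-145 at places 10 and 17.0, and TLR4, a calprotectin receptor, in COLO-205 alone at place 55.5.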

How the data were processed

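The authors mapped the H3K27ac reads to hg19 with Bowtie2 2.1.0 and called peaks in each library with MACS2 2.1.0.20150603 at a q-value of 0.001. The deposited lists give each peak a score (its −log10 q times 10), a ratio of tags at the summit to the background around it (fold), and a −log10 p with a −log10 q, each computed within its library by the authors' caller. The authors' methods merge peaks under 350 bp apart, but the deposited lists hold closer neighbours, and were used as they are. Tags at summits were solved from fold and −log10 p within 0.001 for every peak, and tested on simulated data. ChIP tags came from the lowest background shared by 100 summits, the smallest peak width and 2700000000 genome positions. Intervals are exact Poisson 95% intervals. No test was run, because each line has 1 library.

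The members and lists were chosen with earlier results of these data known. All 30 members are named. Other genes are named from lists of partners, receptors, relatives, neighbours in the 1q21 stretch and cell type markers; some items of the marker lists are not reported here. Promoter sequences were to be shown for up to 8 members, those marked in exactly 1 or 3 lines and the 2 with the highest median place of those marked in all 4; S100A13, ANXA6 and ANXA9 were left out. Scripts used numpy 2.4.6, scipy 1.17.1, matplotlib 3.10.9 and pandas 2.3.3 under Python 3.11.15. Starts came from GENCODE version 44.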

Additional observations from a re-analysis of the deposited data

How the results depend on the processing

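No paired analysis was possible because each line has 1 library and the result comes from no test. The counts, shares and places were recomputed under the alternatives, of which leaving out each line and combining 1 start per gene with equal lists were chosen after seeing the data. Of 92 such values, 67 stayed within 1.5 times and 25 moved further, mostly because fewer peaks, more distance or fewer bases were counted.

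With lists of equal length, members marked were 9 in COLO-205 and 15 in DU-145, and 9 (18.5% of all genes) and 14 (33.7%) with 1 start per gene as well, where OVCAR-3 and SKOV-3 had 15 each (33.6% and 27.3%). Distal peaks fell to 4 in COLO-205, 16 in DU-145 and 24 in OVCAR-3, and the covered share of the stretch to 0.271%, 2.03% and 1.77%. At a −log10 q of 10 or more, distal peaks were 14, 75, 71 and 8 over the lines, and the share 0.546% in COLO-205 and 3.13% in DU-145. Within 20 kb there were 20 distal peaks in COLO-205, 134 in DU-145 and 11 in SKOV-3, and within 100 kb 100 in COLO-205. From S100A9 to S100A1 alone, the share was 2.78%, 18.2%, 14.2% and 4.91%. The median place by −log10 q in COLO-205 was 83.1, for which the cause was not tested.

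No setting gave a member a mark in a further line. Marks lost, of 79, were 3 with 500 bp, 5 with 1 start per gene, 11 at a −log10 q of 10 or more and 22 with equal lists, and 0 with 2 kb, a −log10 q of 5 or more, or the summit in the window. Leaving out COLO-205 gave 16 members marked in every remaining line (29.0% of all genes), DU-145 13 (25.9%), OVCAR-3 14 (25.7%) and SKOV-3 16 (38.2%).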

Other observations

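The relatives of the members outside the list of 30 were read in the same way, and 5 of 6 are protein-coding genes of the annotation. ANXA2R, named as a receptor of annexin A2, was marked in all 4 lines, at places 3.74, 99, 9.86 and 80.2. Its DU-145 peak, with a fold of 10.2 and a −log10 q of 79.2, thus stood above the promoter peaks of S100A16 and ANXA11 in that list. S100A7A, next to S100A7 in the cluster, was marked in OVCAR-3 alone at place 42.3. S100G and the copies of ANXA8, ANXA8L1 and ANXA8L2, were marked in 0 lines.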
